A study of Homo sapiens with 4 samples.

Results

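The CHD genes encode chromodomain helicase DNA-binding proteins, and all 9 of the human family, CHD1 to CHD9, were followed here among the 17764 gene identifiers of the peak lists. They were chosen by identifier, and the family was picked because CHD9 took a high share of the peaks in both eCLIP libraries over input. The shares of CHD9 in eCLIP and input are therefore given as a description, with no test. All 9 genes held peaks and together they held 1002.

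The eCLIP libraries, replicates 1 and 2, hold RNA crosslinked by ultraviolet light to FLAG-ZFR and recovered with the tagged protein. ZFR binds RNA through zinc fingers, carries a DZF domain and takes part in alternative splicing. The inputs, replicates 1 and 2, are size-matched RNA of cells of the same kind, taken without that selection. All 4 libraries came from HEK-293 Flp-In TREx cells, an embryonic kidney line with FLAG-ZFR integrated at its FRT site. The cells were polyclonal and had doxycycline at 1 µg/mL for 48 to 72 h, inputs included, so each library measures cells with induced transgene and none measures cells without it. No label ties the 2 libraries of a group to separate cultures, so a p-value across libraries reflects no more than how these libraries vary, and that variation may be technical.

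CHD proteins carry paired chromodomains, which read histone tails, ahead of an SNF2-type ATPase that slides, evicts or spaces nucleosomes. Subfamily I holds CHD1 and CHD2, subfamily II holds CHD3, CHD4 and CHD5 with their PHD fingers, and subfamily III holds CHD6, CHD7, CHD8 and CHD9. RNA recovered with a nuclear protein can come from unspliced transcripts. The lists do not say whether a peak lies in an exon or an intron.

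The lists differed widely in length, with 479308 and 41904 peaks in eCLIP replicates 1 and 2 and 63068 and 11204 in inputs 1 and 2. Gene values are therefore given as peaks per 10000 peaks of the library. CHD peaks numbered 827 and 59 in eCLIP replicates 1 and 2 and 105 and 11 in inputs 1 and 2. The whole number in each peak's name was taken as its reads. The median CHD peak held 4 and 3 reads in the eCLIP libraries and 3 reads in each input. The strongest held 24 and 18 reads in eCLIP against 8 and 11 in input. Peaks at the minimum of 3 reads made up 33.9% and 55.9% of CHD peaks in eCLIP against 61.9% and 54.5% in input. Over the whole lists these shares were 32.01% and 50.1% in eCLIP against 62.3% and 49.2% in input, so low reads were a property of the lists. As a family the CHD genes took 17.3 and 14.1 per 10000 peaks in eCLIP, against 16.6 and 9.82 in input, so eCLIP replicate 2 lay below input 1 and the groups overlapped. Peaks in bulk RNA cannot tell more binding per molecule from more RNA molecules, nor fewer cells with a transcript from less of it per cell.

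CHD9 was the member with the highest share of peaks in both eCLIP libraries. CHD9, also called CReMM, is a subfamily III remodeler studied in bone-forming precursor cells. It lay on the plus strand of chromosome 16 in hg19, with peaks from 53088952 to 53361025 under the identifier ENSG00000177200.11. The lists gave CHD9 219 peaks in eCLIP replicate 1 and 21 in eCLIP replicate 2, while input 1 had 11 and input 2 had 0. Those were 4.57 and 5.01 per 10000 peaks in eCLIP against 1.74 and 0 in input. Both eCLIP libraries lay above both inputs and lay close to each other, with a mean of 4.79 ± 0.313 in eCLIP and 0.872 ± 1.23 in input (SD, n = 2 each). Between libraries numbered 1 the ratio of eCLIP to input was 2.62. It would be lower with touching peaks merged, which shortened the input 1 list by 26.4% and left its 11 CHD9 peaks as they were. Input 2 had none. A floor of 3 peaks, set in place of a count of 0, amounts to 2.68 per 10000 of its short list. Against that floor eCLIP replicate 2 was 1.87-fold higher than input 2. The Wilson 95% intervals of that pair, 3.28 to 7.66 per 10000 in eCLIP replicate 2 and 0 to 3.43 in input 2, overlapped slightly.

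Of the genes listed in each eCLIP library, 1.57% and 4.63% had more peaks than CHD9, against 11.8% of those listed in input 1. By reads in peaks CHD9 kept this order, with 3.63 and 4.22 per 10000 reads in eCLIP against 1.56 and 0 in input. The log2 difference of eCLIP minus input in peak share was 2.32 after a pseudocount of 0.5, which ranked sixth among 8914 genes with at least 10 peaks. CHD9 made up 26.5% (Wilson 95% interval 23.6 to 29.6) and 35.6% (24.6 to 48.3) of all CHD peaks in eCLIP, against 10.5% (5.95 to 17.8) in input 1 and 0% (0 to 25.9) in input 2. These intervals, like all others given, cover counting error only. CHD9 was chosen for this contrast, so a gap between its intervals is no test. With touching peaks merged, input 1 held 77 CHD peaks, of which 11 were still in CHD9. Without CHD9 the other members together took 12.7 and 9.07 per 10000 peaks in eCLIP against 14.9 and 9.82 in input. There eCLIP replicate 1 exceeded input 2 alone, and eCLIP replicate 2 exceeded neither.

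**Figure D1:**
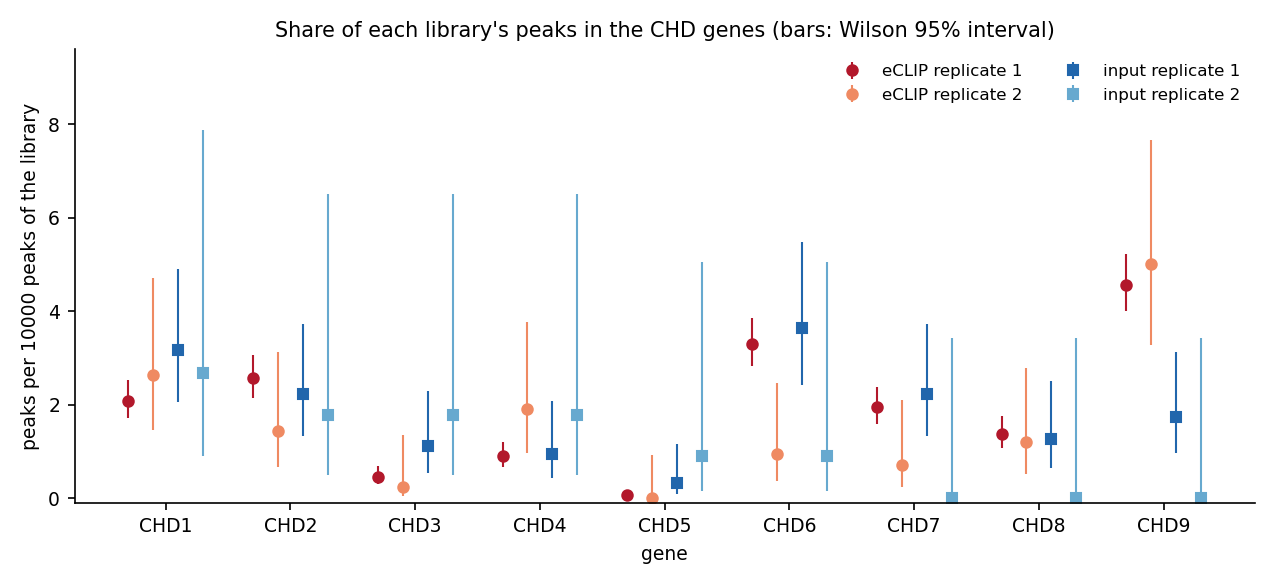
Peaks of each CHD gene per 10000 peaks of the library (vertical axis) for eCLIP replicates 1 and 2 (circles) and inputs 1 and 2 (squares), with Wilson 95% intervals of the peak count. CHD9 is the gene in which both eCLIP values (4.57 and 5.01) lie above both input values (1.74 and 0), and the bars of input 2 are wide because its list held 11204 peaks.

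The high peak number of CHD9 in eCLIP replicate 1 went with its long span, while its input 1 density, with peaks counted as listed, was the lowest of the family. Over the stretch covered by its peaks, 272 kb, CHD9 had 8.05 peaks per 10 kb in eCLIP replicate 1 and 0.772 in eCLIP replicate 2, against 0.404 in input 1. CHD6, the member next in span with 215 kb, had 7.36 and 0.186 per 10 kb in eCLIP against 1.07 in input 1. CHD1, over 71.1 kb, had the highest density in eCLIP replicate 1 and in input 1, at 14.1 and 2.81 per 10 kb, with 1.55 in eCLIP replicate 2. CHD9 had 19.9 eCLIP replicate 1 peaks for each input 1 peak, where the other tested members had between 3.14 (CHD3) and 8.79 (CHD2) and the whole lists had 7.60. Touching peaks were counted singly here. Merging them shortened the input 1 list by 26.4% and that of eCLIP replicate 1 by 0.663%. In input 1 it left CHD9 at 11 peaks and took CHD6 from 23 to 13, CHD1 from 20 to 11, CHD8 from 8 to 5 and CHD5 from 2 to 1. With merged peaks CHD9 stood less far from the other members and the whole lists, and the order of the input 1 densities changed.

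Relative to input 1, the surplus of CHD9 peaks in eCLIP lay on the 5′ side of the gene. The span of each gene, from its first to its last peak base over the 4 libraries, was divided into 10 equal parts, and the 5 nearest the 5′ end are called the 5′ side. In CHD9 the 5′ side held 181 of 219 peaks in eCLIP replicate 1, or 82.6% (77.1 to 87.1), and 19 of 21 in eCLIP replicate 2, or 90.5% (71.1 to 97.3). In input 1 it held 6 of 11, or 54.5% (28.0 to 78.7), a wide interval that overlapped both eCLIP intervals. As shares of the library, the 5′ side took 3.78 and 4.53 per 10000 peaks in eCLIP against 0.951 in input 1. The 3′ side took 0.793 and 0.477 per 10000 in eCLIP (38 and 2 peaks) against 0.793 in input 1 (5 peaks). There, with peaks counted as listed, eCLIP replicate 1 equalled input 1 and eCLIP replicate 2 lay below it. Merging touching peaks kept the 11 CHD9 peaks of input 1 but shortened its list, which would raise its shares on both sides. Input 2 had 0 peaks on either side.

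**Figure D2:**
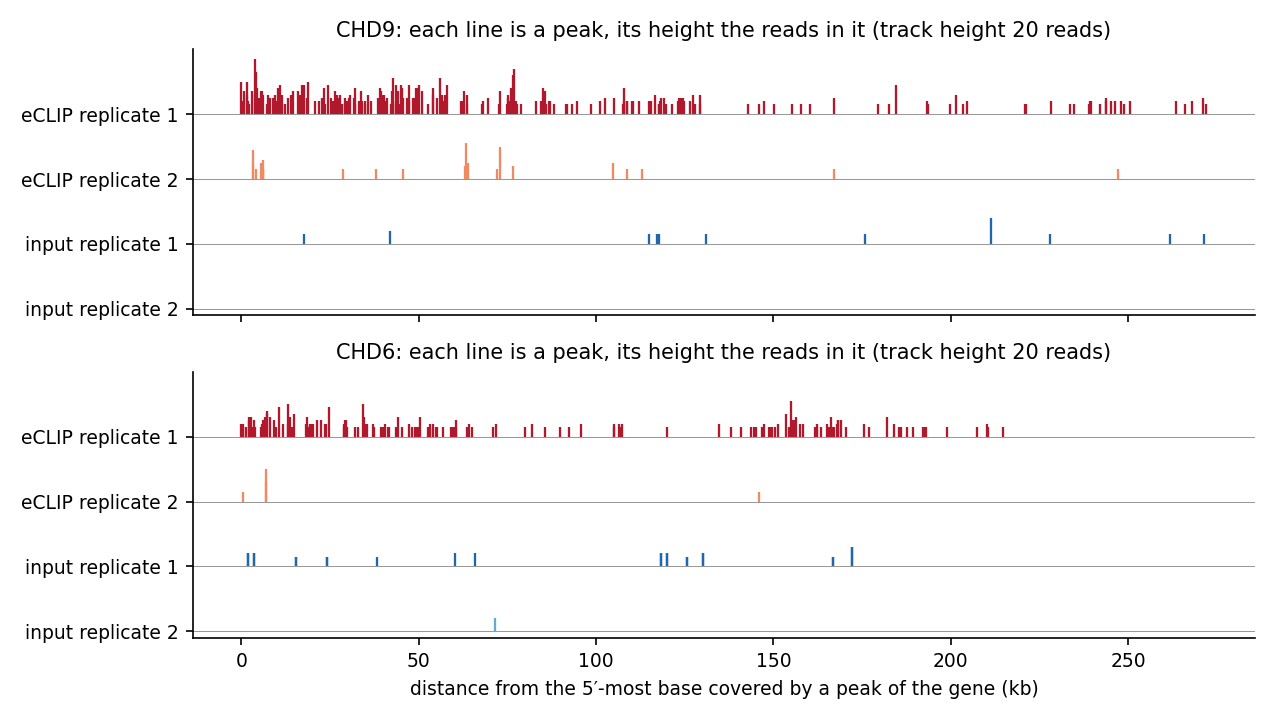
Peaks of CHD9 (top) and CHD6 (bottom) in eCLIP replicates 1 and 2 and inputs 1 and 2, by distance in kb from the 5′-most peak base of the gene, with the height of each line giving the reads in the peak (track height 20 reads). In CHD9, 181 of 219 and 19 of 21 eCLIP peaks lie on the left side of the span, against 6 of 11 in input 1, and input 2 lists none.

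Over the whole family the eCLIP peaks also leaned to the 5′ side. It held 70.7% (67.5 to 73.7) of CHD peaks in eCLIP replicate 1 and 71.2% (58.6 to 81.2) in eCLIP replicate 2, against 55.2% (45.7 to 64.4) in input 1 and 54.5% (28.0 to 78.7) in input 2. In 6528 other genes (20 or more peaks over 5 kb or more), the values were 58.6% and 59.4% in eCLIP against 51.6% and 53.3% in input. Without CHD9 the family values were 66.4% (62.6 to 70.1) and 60.5% (44.7 to 74.4) in eCLIP against 55.3% (45.3 to 65.0) and 54.5% (28.0 to 78.7) in input. The eCLIP replicate 1 interval thus stayed above the value of the other genes without CHD9, and the eCLIP replicate 2 interval contained it. These pooled intervals take peaks, not genes, as units. In CHD3 and CHD4 the eCLIP replicate 1 value was below that of the other genes. The difference between CHD and other genes was not tested, and the other genes were not matched to the CHD genes in span. In eCLIP replicate 1 the 5′ side held 54.5% in CHD3 (27.2 kb) and 46.5% in CHD4 (37.2 kb). It held 66.7% in CHD8 (70.7 kb), 61% in CHD1 (71.1 kb) and 74.8% in CHD2 (145 kb). In CHD7 (187 kb), CHD6 (215 kb) and CHD9 (272 kb) it held 74.2%, 65.8% and 82.6%. Whether the share goes with span was not tested.

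**Figure D3:**
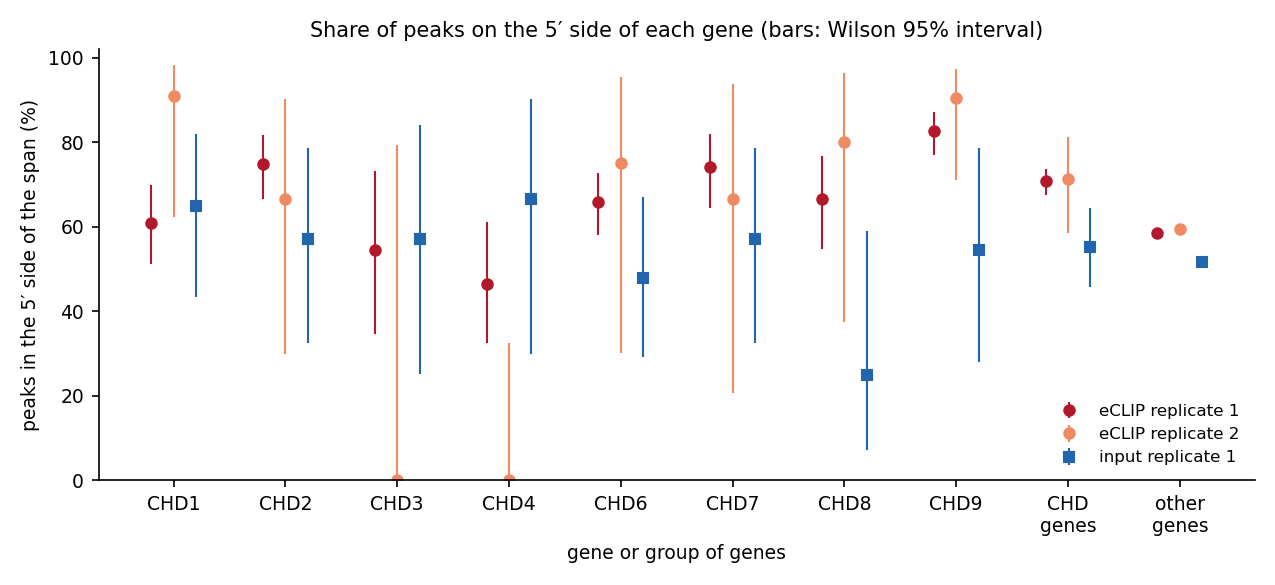
Share of peaks on the 5′ side of the span (percent, Wilson 95% intervals) for the 8 CHD genes with at least 10 peaks, for all CHD genes and for 6528 other genes, in eCLIP replicates 1 and 2 (circles) and input 1 (squares). CHD9 has the highest eCLIP replicate 1 share, 82.6%, followed by CHD2 (74.8%) and CHD7 (74.2%). In eCLIP replicate 2 the highest is CHD1 with 90.9% (10 of 11 peaks), beside 90.5% (19 of 21) in CHD9. CHD4 has 46.5% in eCLIP replicate 1 and 0 of 8 peaks in eCLIP replicate 2.

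Across all genes, eCLIP and input were compared with limma on log2 peak share, and 8 of the 9 members had the 10 peaks required. CHD5, with 6 peaks, did not. limma called 0 of 8914 genes higher in eCLIP (0%) and 0 lower (0%) at an adjusted p under 0.05. At an unadjusted p under 0.05 it gave 112 higher (1.26%) and 62 lower (0.696%). None of the 7 tested members other than CHD9 was called. Both eCLIP shares lay above both inputs in 21.1% of the tested genes and below both in 10.2%. Among the members CHD9 was the 1 above both, which the choice of the family fixed. With peaks counted as listed, CHD1 and CHD3 were the tested members below both. The median log2 difference was -0.01 for the 8 tested members and -0.03 without CHD9, against 0.16 for all genes tested.

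Subfamily I took 4.65 and 4.06 per 10000 peaks in eCLIP against 5.39 and 4.46 in input, so the groups overlapped, and neither gene passed the test. CHD1 (ENSG00000153922.6) had peaks from 98191030 to 98262136 on the minus strand of chromosome 5. The protein binds methylated histone H3 of active genes through its chromodomains. CHD1 had 100 and 11 peaks in eCLIP against 20 and 3 in input, or 2.09 and 2.63 per 10000 in eCLIP against 3.17 and 2.68 in input. Its log2 difference was -0.26 (SE 0.78, limma adjusted p = 0.995). CHD2 (ENSG00000173575.13), with peaks between 93426011 and 93570890 of chromosome 15 (plus strand) and known for its link to childhood epilepsy, had 123 and 6 peaks in eCLIP against 14 and 2 in input. That was 2.57 and 1.43 per 10000 in eCLIP against 2.22 and 1.79 in input, with a log2 difference of -0.03 (SE 0.77, limma adjusted p = 0.998). The eCLIP values of CHD2 enclosed those of the inputs. For CHD1 both eCLIP values were below both inputs by peaks as listed but not by reads, at 1.64 and 2.00 per 10000 reads in eCLIP against 2.85 and 0.882 in input. Nor did this hold with touching peaks merged, which took CHD1 from 20 to 11 peaks in input 1. The CHD1 share of eCLIP replicate 2 then lay above that of input 1.

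Subfamily II supplies the ATPase of the NuRD complex, which joins nucleosome remodeling to histone deacetylation. It took 1.42 and 2.15 per 10000 peaks in eCLIP against 2.38 and 4.46 in input, both eCLIP values below both inputs. CHD3 (ENSG00000170004.12), with peaks between 7788316 and 7815472 of chromosome 17 (plus strand), had the lowest log2 difference of the tested members. Its counts were 22 and 1 in eCLIP against 7 and 2 in input, or 0.459 and 0.239 per 10000 in eCLIP against 1.11 and 1.79 in input. Both eCLIP values were below both inputs, also by reads (0.312 and 0.218 per 10000 in eCLIP against 0.923 and 0.588 in input), yet the log2 difference of -1.19 (SE 0.80) did not pass (limma adjusted p = 0.995). By reads, 9.08% of the tested genes lay below both inputs and 25% above both.

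CHD4 (ENSG00000111642.10), the main NuRD ATPase in dividing cells, had peaks from 6679376 to 6716550 on the minus strand of chromosome 12. It had 43 and 8 peaks in eCLIP against 6 and 2 in input, or 0.897 and 1.91 per 10000 in eCLIP against 0.951 and 1.79 in input. The numbered pairs were nearly even, and the log2 difference was 0.01 (SE 0.78, limma adjusted p = 0.999). CHD5 (ENSG00000116254.13), best known from neurons and on the minus strand of chromosome 1 from 6205001 to 6240136, had 3 and 0 peaks in eCLIP against 2 and 1 in input, too few for the test. At 0.0626 and 0 per 10000 in eCLIP against 0.317 and 0.893 in input, its eCLIP values were the lower ones, and every peak of it held 3 or 4 reads. A count of 0 in eCLIP replicate 2 allows up to 0.716 per 10000.

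Subfamily III took 11.2 and 7.88 per 10000 peaks in eCLIP against 8.88 and 0.893 in input, with CHD9 included. Without CHD9 it took 6.61 and 2.86 per 10000 in eCLIP against 7.14 and 0.893 in input, so that eCLIP replicate 1 lay below input 1 rather than above it. Its members other than CHD9 had no peak or 1 peak in input 2, so their comparison rested mainly on input 1. CHD6 (ENSG00000124177.10), on the minus strand of chromosome 20 from 40031396 to 40246130, had 158 and 4 peaks in eCLIP against 23 and 1 in input, or 3.30 and 0.955 per 10000 in eCLIP against 3.65 and 0.893 in input. In eCLIP replicate 1 and in input 1 few genes had more peaks than CHD6 (3.10% and 2.88% of the genes listed there). Libraries of the same number were close and those of different number were not, and the log2 difference was -0.03 (SE 0.83, limma adjusted p = 0.998). CHD7 (ENSG00000171316.7), with peaks between 61592013 and 61778616 of chromosome 8 (plus strand) and mutated in CHARGE syndrome, had 93 and 3 peaks in eCLIP against 14 and 0 in input, or 1.94 and 0.716 per 10000 in eCLIP against 2.22 and 0 in input. Its log2 difference was 0.56 (SE 0.88, limma adjusted p = 0.995) with input 2 at 0, and -0.66 without that library. CHD8 (ENSG00000100888.8), on the minus strand of chromosome 14 from 21853403 to 21924056, binds β-catenin and restrains its target genes. It had 66 and 5 peaks in eCLIP against 8 and 0 in input, or 1.38 and 1.19 per 10000 in eCLIP against 1.27 and 0 in input. Its log2 difference of 0.92 (SE 0.84, limma adjusted p = 0.995) came to 0.01 without input 2, where the eCLIP and input 1 shares were nearly equal. For CHD9 the same step left 1.24.

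**Figure D4:**
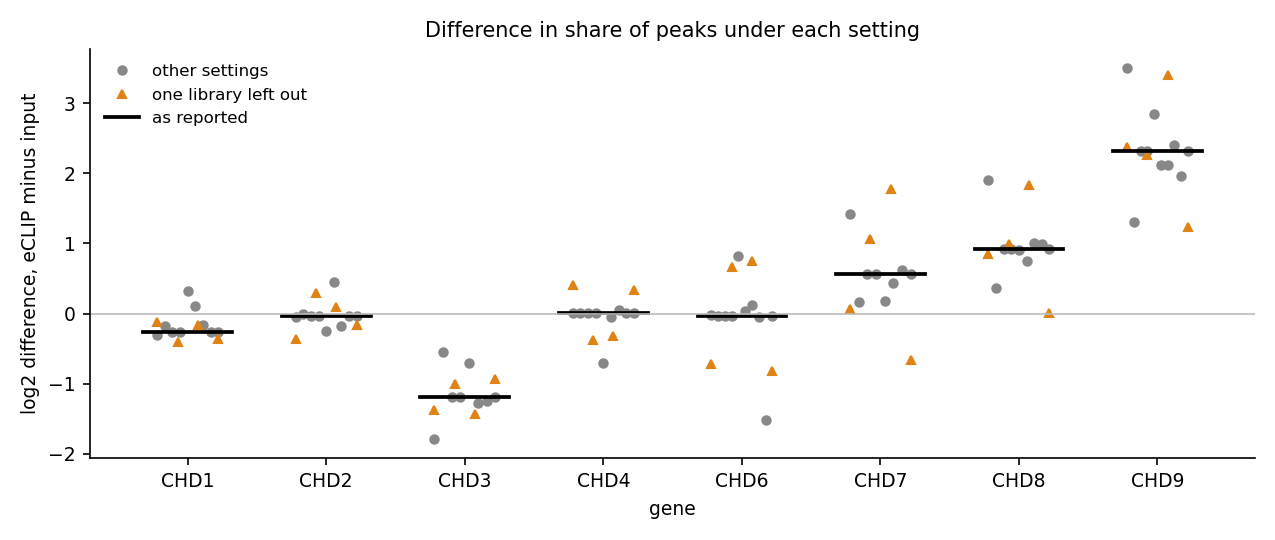
Log2 difference of eCLIP minus input in peak share for the 8 tested members as reported (black lines), with 1 library left out (triangles) and under the other settings (circles). CHD9 stays between 1.24 and 3.51 and CHD3 between -1.80 and -0.55, while CHD1, CHD2, CHD4, CHD6 and CHD7 have values on both sides of 0.

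Next, positions shared by both eCLIP libraries were sought, counting peaks that had at least 1 base in common on the same strand. In the CHD genes 14 peaks of eCLIP replicate 1 overlapped a peak of eCLIP replicate 2, and all 14 overlapped no input peak (100%, Wilson 95% interval 78.5 to 100). Among such shared peaks of the other genes 85.2% (84.6 to 85.7) overlapped no input peak, and among all their eCLIP replicate 1 peaks 98.1% did not. The excess of the 14 over the other genes was not tested. They lay in CHD9 (4), CHD1 (3), CHD2 (3), CHD4 (3) and CHD7 (1), and in none of CHD3, CHD5, CHD6 and CHD8. As a share of the eCLIP replicate 1 peaks of the family this was 1.69% (1.01 to 2.82), against 2.96% over all genes, and as many CHD peaks of that library, 14, overlapped a peak of input 1. Of eCLIP replicate 2 peaks in the family, 15 of 59, or 25.4% (16.1 to 37.8), overlapped eCLIP replicate 1, against 33.1% in the other genes. Both CHD shares were below those of the genes they were set against, and the difference was not tested.

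The 3 strongest shared sites of CHD9 were at 53093090 to 53093131, 53095018 to 53095044 and 53256002 to 53256028 on chromosome 16. They held 13, 6 and 5 reads in eCLIP replicate 1. The overlapping eCLIP replicate 2 peaks held 3 reads each, the minimum, and 2 such peaks met the site at 53095018. The fourth, at 53197549 to 53197579, held 4 and 3 reads. Of these 4 sites, 2 lay within the first 10 kb of the span.

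By eCLIP replicate 1 reads, CHD4 had the strongest shared site of the family, at 6679423 to 6679464 on the minus strand of chromosome 12. It held 21 reads in eCLIP replicate 1 (deposited p-value 2.84e-16) and 4 in eCLIP replicate 2, and lay 99.8% of the way along the span, at its 3′ end. The other shared CHD4 sites, at 6694925 to 6694960 and 6686557 to 6686586, held 6 and 5 reads in eCLIP replicate 1 and 3 each in eCLIP replicate 2. All 3 lay on the 3′ side, in contrast to the 5′ lean of CHD9, and so did all 8 CHD4 peaks of eCLIP replicate 2.

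In CHD2, 2 of the 3 shared sites held more reads in the shorter eCLIP list. At 93438077 to 93438135 and 93438176 to 93438222 on the plus strand of chromosome 15, eCLIP replicate 2 listed peaks of 18 and 13 reads, with deposited p-values of 3.70e-17 and 1.91e-11. The eCLIP replicate 1 peaks inside them held 4 reads each. A further CHD2 peak of eCLIP replicate 2, at 93437325 to 93437376, also held 13 reads, met no eCLIP replicate 1 peak and overlapped an input 2 peak of 6 reads. No other CHD peak of eCLIP replicate 2 held more than 11 reads. Another shared CHD2 site lay near, at 93440361 to 93440385 with 5 and 3 reads. In CHD1 the shared sites at 98259620 to 98259665, 98231708 to 98231742 and 98252976 to 98252985 held 13, 6 and 3 reads in eCLIP replicate 1 and 3 each in eCLIP replicate 2. The CHD7 site at 61733999 to 61734029 held 7 and 5 reads and was the only shared site with deposited p-values of at most 0.001 in both libraries (7.83e-05 and 0.00075).

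The strongest eCLIP replicate 1 peak of a member was met in eCLIP replicate 2 for 2 of 9 members, CHD1 and CHD4. The strongest eCLIP replicate 2 peak was met in eCLIP replicate 1 for 2 of the 8 members with such a peak, CHD2 and CHD7. Over the 8 tested members both shares were 25% (7.15 to 59.1). In other tested genes the strongest eCLIP replicate 1 peak was met in 10.95% (10.3 to 11.6) and the strongest eCLIP replicate 2 peak in 28.5% (27.4 to 29.6), values inside the wide intervals of the members. In CHD9 the strongest were a peak of 17 reads at 53092786 to 53092821 in eCLIP replicate 1 and a peak of 11 reads at 53152298 to 53152332 in eCLIP replicate 2, each listed in its own library alone. Within 100 bases, 25 of the 59 eCLIP replicate 2 peaks of the family had an eCLIP replicate 1 peak, against 29 of 105 peaks of input 1. The median distance was 144 bases from eCLIP replicate 2 and 203 bases from input 1. The eCLIP replicate 1 list is dense, and what its density alone would give was not measured.

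The strongest CHD peaks of the inputs lay in CHD9 and CHD4. The input 1 peak at 53300135 to 53300172, on the 3′ side of CHD9, held 8 reads and overlapped no peak of another library. The input 2 peak at 6690698 to 6690761 in CHD4 held 11 reads and overlapped an eCLIP replicate 1 peak of 17 reads. The same place carried a peak of a second identifier on the same strand, ENSG00000251898.1, with 8 reads in eCLIP replicate 1, 10 in input 2 and, nearby, 5 in input 1. Reads there cannot be assigned to CHD4 rather than to the other identifier.

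A similar overlap touched CHD8. Its strongest peak, at 21865517 to 21865565 with 24 reads in eCLIP replicate 1, enclosed a peak of 20 reads under ENSG00000200785.1, and a second CHD8 peak of 12 reads overlapped one of 11 under ENSG00000199436.1. Neither place had a peak in the other 3 libraries. The reference table, which follows another build, places the small RNA genes SNORD8 and SNORD9 within CHD8 and SCARNA11 within CHD4. It does not pair these names with the identifiers. In eCLIP replicate 1, 4 of the 158 CHD6 peaks and 2 of the 219 CHD9 peaks were also listed under another identifier.

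The genes whose shares over the 4 libraries lay nearest to those of CHD9 were ENSG00000039560.9 and ENSG00000105426.10, at Euclidean distances of 0.32 and 0.45 on the log2 scale. The first had 4.15 and 4.06 per 10000 peaks in eCLIP against 1.59 and 0 in input, and the second had 3.53 and 4.30 in eCLIP against 1.43 and 0 in input. The median distance over all tested genes was 3.92. Among the members CHD8 was the nearest, at 2.25, and 6.13% of the tested genes were nearer to CHD9 than that.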

How the data were processed

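Binding of FLAG-ZFR to RNA was measured in 2 eCLIP and 2 input libraries, grouped by their titles. Per the submitters' processing notes, cutadapt, STAR, SAMtools and hg19 were used. The peak caller, the annotation and all versions are not stated by these notes or the labels. The authors deposited 1 peak list per library, with a p-value under 0.05 for each peak and a score, the whole part of 10 times its negative log10, at most 1000. The whole number of at least 3 that ends each peak's name was taken as the reads in the peak, which no file states. Sequencing depth is thus unknown, and the number of peaks sets the precision.

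From these, peaks per gene were counted and divided by the list's total. limma 3.58.1 (R 4.3.3) compared eCLIP with input on log2(peaks per 10000 + 0.5), two-sided, without a replicate term, over the 8914 genes with at least 10 peaks, with Benjamini-Hochberg adjustment over all of them. The script was tested on simulated data. Shares carry Wilson 95% intervals. With 2 libraries against 2, an exact permutation test cannot give a two-sided p below 0.333. The members and lists were chosen with earlier results of these data known. All 9 members are named. For each, the 3 shared sites with most eCLIP replicate 1 reads are given (for CHD9 1 more was added after its values were seen), with the strongest peak of each input and the 2 genes nearest to CHD9. The strongest eCLIP peaks, the densest windows and the identifiers that overlap a member were chosen after their values were seen. Planned lists of NuRD partners and other remodelers were not used here, because none of the 59792 reference genes carries an Ensembl identifier. The sequences of the peaks were not used here, for want of an hg19 sequence. Alternatives covered the pseudocount, the minimum of peaks, the p limit, reads, merged peaks, repeats, list length, the replicate number and each library left out.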

Additional observations from a re-analysis of the deposited data

How the results depend on the processing

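Apart from CHD9, for which no test is given, no tested member passed the limma threshold under the alternatives run. CHD8 kept its direction in 13 of 13 alternatives (log2 difference 0.01 to 1.90) and CHD3 in 12 of 12 (-1.80 to -0.55). The difference of CHD9, for which the family was chosen, ranged from 1.24 to 3.51. With peaks limited to a p of at most 0.001 the log2 difference was reversed for CHD1 (0.33), CHD4 (-0.71) and CHD6 (0.82), and CHD3 and CHD7 had too few peaks. With reads in place of peaks it was reversed for CHD1 (0.11), CHD2 (0.45), CHD4 (-0.047) and CHD6 (0.033), and with touching peaks merged for CHD6 (0.13). Leaving out 1 library gave -0.37 to 0.30 for CHD2, -0.38 to 0.40 for CHD4, -0.82 to 0.75 for CHD6 and -0.66 to 1.78 for CHD7. The sign turned for CHD2, CHD4 and CHD6 without eCLIP replicate 2 (0.30, -0.38 and 0.66) or input 1 (0.09, -0.32 and 0.75), and for CHD7 without input 2. The causes were not tested.

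Over all genes, leaving out 1 library gave 0 to 695 genes higher and 0 to 5 lower. The 695 came without eCLIP replicate 2, where a lone library is assumed to vary like the inputs. With the replicate number as a block, 3 genes were higher and 1 lower, none of them a CHD gene. Same-numbered libraries deviated together (r = 0.40 across 8914 genes, which are not independent), but no label says that a number marks a shared culture. In both groups library 2 also has the shorter list, so the correlation cannot tell a shared origin from list length. Neither was tested.

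The 14 shared sites became 1 with a p of at most 0.001 and 0 with lists cut to the shortest. For CHD peaks with a p of at most 0.001, the first of the 10 parts held 37.0% in eCLIP replicate 1 and 47.1% (17 peaks) in eCLIP replicate 2, against 16.7% (12 peaks) in input 1 and 50% (2 peaks) in input 2. The 5′ side held 80.5% and 76.5% in eCLIP against 33.3% in input 1 and 50% in input 2. At this limit CHD9 supplied 57 of the 154 CHD peaks of eCLIP replicate 1 and 7 of the 17 of eCLIP replicate 2. Shares without CHD9 and in other genes were not measured at this limit, so they cannot be set beside these. With 5 equal parts the first held 43.2% in eCLIP replicate 1 against 30.5% in input 1, since each part is wider. Input 2, with 11 CHD peaks, limits every comparison with it.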

Other observations

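Among CHD peaks of eCLIP replicate 2, those with more reads were not the ones met more often in eCLIP replicate 1. Of the 26 peaks with over 3 reads, 4 overlapped eCLIP replicate 1, or 15.4% (Wilson 95% interval 6.15 to 33.5), and of the 33 with 3 reads, 11 did, or 33.3% (19.8 to 50.4). In the other genes the order was the opposite, with 38.3% (37.6 to 38.9) of peaks with over 3 reads and 28.0% (27.4 to 28.6) of those with 3 reads. The CHD intervals overlap each other, and the difference in order was not tested.

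The stretch of chromosome 17 that holds CHD3 carried a site present in all 4 libraries on the opposite strand. It was listed under ENSG00000183011.9, close to the 5′-most CHD3 peak, at 7788346 to 7788373 in eCLIP replicate 1. The peaks there held 6 and 5 reads in eCLIP against 5 and 4 in input. No other member had an opposite-strand peak within its span. The reference table places NAA38 over CHD3 but does not pair it with this identifier.

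Windows of 10 kb were chosen as the densest in eCLIP replicate 1, so a high count in that library was fixed by the choice. That of CHD7, from 61598471 to 61608470 on chromosome 8, held 18 peaks in eCLIP replicate 1 and 0 in each of the other 3 libraries. Over its whole span CHD7 had only 3 peaks in eCLIP replicate 2 and 14 and 0 in the inputs, so their absence from a window says little. In that of CHD1, from 98252409 to 98262408 on chromosome 5, peaks numbered 29 and 6 in eCLIP against 7 and 2 in input. That window held at least 1 peak in every library, as did those of CHD2, with 28 and 4 in eCLIP against 2 and 1 in input, and of CHD4, with 14 and 4 in eCLIP against 1 and 2 in input. In CHD9 it lay from 53128153 to 53138152 and held 26 and 1 in eCLIP against 1 and 0 in input. The window of CHD6 held 22 and 3 in eCLIP against 4 and 0 in input, and that of CHD8 18 and 2 against 0 and 0. Those of CHD3 and CHD5 held 9 and 0 in eCLIP against 4 and 1 in input, and 2 and 0 against 2 and 0.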
